A study of Mus musculus with 6 samples.

Results

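The genes described here are 10 of the glycolytic pathway, namely the glucose transporter gene *Slc2a1* and the enzyme genes *Hk1*, *Hk2*, *Pfkl*, *Pfkp*, *Aldoa*, *Pgk1*, *Pkm*, *Ldha* and *Ldhb*. They were taken by name from the 53657 gene names in the count files, and all 10 were present and passed the expression filter that left 19656 genes for testing. RNA came from tdTomato-positive, MCAM-bright cells sorted from testes of adult mice 3 months after tamoxifen, with 3 libraries from wild-type mice (WT), 1 mouse each, and 3 from mice heterozygous for *Hras* G12V (MUT). Mice of both groups carried *Gfra1-creERT2*, which places a tamoxifen-inducible Cre recombinase under the *Gfra1* promoter, together with a Cre-dependent tdTomato reporter, and both groups received tamoxifen. The MUT mice also carried the *FR-Hras* G12V allele, in which Cre removes a wild-type *Hras* gene so that the mutated copy is read from the endogenous promoter, and WT were littermates without it. Recombination need not occur in every cell, so the MUT libraries can include cells that kept wild-type *Hras*. From variant calling in the RNA of these MUT samples, the paper infers that most of the sorted cells carried the mutation. MCAM is a surface protein by which undifferentiated spermatogonia, the population that holds the stem cells of the male germ line, are enriched.

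Glycolysis breaks glucose down to pyruvate in the cytosol. Glucose enters through transporters such as GLUT1, the product of *Slc2a1*, is trapped by hexokinases, is committed to the pathway by phosphofructokinase, and is then carried through aldolase, phosphoglycerate kinase and pyruvate kinase to pyruvate, which lactate dehydrogenase interconverts with lactate. Active Ras is known in other cell types for raising glucose uptake and glycolytic gene expression, and in the testis several glycolytic steps pass to germ-cell isozymes encoded by separate genes once spermatogonia enter meiosis. The comparison of MUT with WT asked whether transcripts of this pathway differed in spermatogonia with hyperactive *Hras*.

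HIF factors, and MYC with its relatives, are textbook regulators of glycolytic genes, and bind sites built around ACGTG or GCGTG and around CACGTG. The promoter sequences of RefSeq on GRCm38.p6 were searched for these letters on both strands in the 250 bases before each transcription start, counting matches that overlap. All 10 genes had at least 1 start in the table, 15 in all. At least 1 ACGTG or GCGTG lay before 12 of these 15 starts (80%), and before 38.6% of all 32851 starts in the table. Stretches before neighbouring starts can overlap, as 2 of *Aldoa* did (chr7:126799179-126799428 and chr7:126799255-126799504), each counted with 1 match. The median GC content was 62.8% before the members' starts and 52.4% before all starts, and these motifs contain CG, so base composition moved with the match count and its part in it was not tested. CACGTG, which contains ACGTG on both strands, lay before 1 of the 15 starts (6.67%) and before 6.02% of all starts. The sequences before 1 start each of *Slc2a1*, *Hk2* and *Ldha* are shown because these genes stand for the entry of glucose, its first phosphorylation and the exit to lactate. Capitals mark every match of ACGTG or of GCGTG on either strand, and each sequence is written 5′ to 3′ on the strand of its gene.
*Slc2a1*, chr4:119108495-119108744, plus strand: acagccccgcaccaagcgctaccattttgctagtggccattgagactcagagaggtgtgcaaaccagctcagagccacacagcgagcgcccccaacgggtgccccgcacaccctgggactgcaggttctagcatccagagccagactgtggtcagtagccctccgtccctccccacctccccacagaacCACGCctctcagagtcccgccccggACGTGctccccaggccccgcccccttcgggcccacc
*Hk2*, chr6:82774455-82774704, minus strand: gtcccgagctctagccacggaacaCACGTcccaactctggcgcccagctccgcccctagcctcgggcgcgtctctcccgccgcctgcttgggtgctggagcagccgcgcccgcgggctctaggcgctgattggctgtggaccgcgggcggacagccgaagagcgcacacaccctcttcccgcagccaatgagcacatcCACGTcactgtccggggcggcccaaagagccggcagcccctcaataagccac
*Ldha*, chr7:46845554-46845803, plus strand: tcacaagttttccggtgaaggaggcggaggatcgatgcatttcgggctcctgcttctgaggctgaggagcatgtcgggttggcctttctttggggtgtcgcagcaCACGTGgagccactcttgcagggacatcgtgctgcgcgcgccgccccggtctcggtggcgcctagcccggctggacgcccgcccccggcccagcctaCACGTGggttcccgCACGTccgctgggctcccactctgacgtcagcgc
The *Ldha* stretch held 5 matches, and the *Slc2a1* and *Hk2* stretches held 2 each. Each of the 2 CACGTG in the *Ldha* stretch was counted as 2 of its matches, 1 per strand, so its matches are not all separate places. *Ldha* has a second start, and the 250 bases before it (chr7:46846832-46847081, not printed) held 1 match and no CACGTG. A match of letters is a description and not a binding site.

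Each library had between 22729292 and 23550433 counted fragments, so that 3 counts, the limit that a count of 0 allows, correspond to at most 0.132 CPM, the unit that scales each gene's count to the size of its library. The 8 marker genes of undifferentiated spermatogonia, among them *Gfra1*, *Zbtb16* and the sorting marker *Mcam*, were all detected. They summed to 2621, 2515 and 2047 CPM in WT replicates 1 to 3 and to 2662, 2259 and 2253 CPM in MUT replicates 1 to 3. *Hras* itself averaged 60.7 ± 4.21 CPM in WT and, with overlapping ranges, 66.7 ± 4.97 CPM in MUT (SD, n = 3 each), a gene-level value that does not separate the alleles. Transcripts of other cells were present as well. The 6 spermatid markers, from *Prm1* to *Spaca1*, were all detected in every library and summed to between 869 and 1476 CPM in WT and between 601 and 1147 CPM in MUT, and the 6 macrophage markers to between 551 and 811 CPM in WT and between 462 and 601 CPM in MUT. The 6 Leydig cell markers summed to 67.3 CPM in MUT replicate 3 and to at most 21.1 CPM in the other libraries, so MUT replicate 3 stood apart in that respect. In sorted bulk RNA, fewer cells of a type and less RNA per cell cannot be told apart.

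*Slc2a1* lies on the plus strand of chromosome 4 from 119108711 to 119137983 (GRCm38). Its level was 62.4, 60.1 and 54.6 CPM in WT replicates 1, 2 and 3 and 70.5, 62.0 and 55.0 CPM in MUT replicates 1, 2 and 3. The highest library was MUT replicate 1, both libraries numbered 3 were lowest, and the groups overlapped. The log2 fold change of MUT over WT was 0.08 (standard error 0.10), and its 95% confidence interval ran from 0.903 to 1.24 on the fold scale.

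The hexokinases phosphorylate glucose on entry. *Hk1* (minus strand of chromosome 10, 62268855 to 62379908) is the widely expressed form, and the gene also gives rise to a spermatogenic isoform that gene-level counts do not separate. It was at 271, 239 and 264 CPM in WT replicates 1 to 3, against 202, 215 and 297 CPM in MUT replicates 1 to 3. MUT replicates 1 and 2 were below every WT library, and MUT replicate 3 was above every other library. Averages were 258 ± 17.1 CPM for WT and 238 ± 51.4 CPM for MUT (SD, n = 3 each), with a log2 fold change of -0.12 (standard error 0.14).

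*Hk2* (minus strand of chromosome 6, 82725025 to 82774454) encodes the hexokinase that is inducible in many tissues. Its level was 72.8, 65.8 and 56.1 CPM in WT replicates 1 to 3, against 81.8, 80.6 and 64.7 CPM in MUT replicates 1 to 3. The groups overlapped only through MUT replicate 3, which was below WT replicates 1 and 2. *Hk2* had the largest difference among the 10 genes in the fit of all 6 libraries on genotype alone, averaging 64.9 ± 8.40 CPM for WT and 75.7 ± 9.55 CPM for MUT (SD, n = 3 each). The log2 fold change came to 0.22 with a standard error of 0.12, and the Benjamini-Hochberg adjusted p in edgeR was 0.998. In each of the 3 same-numbered pairs the MUT library was higher, as it also was for *Slc2a1* and *Pfkl*. For *Slc2a1* the libraries numbered 3 were nearly equal, at 54.6 CPM in WT and 55.0 CPM in MUT. The share of all genes tested with this pattern was not computed, so it is a description only. The labels do not say whether mice of the same number form a pair. Leaving out 1 library moved the log2 fold change of *Hk2* between 0.13 (without WT replicate 3) and 0.32 (without MUT replicate 3), and *Hk2* was no longer the largest without either of them, without both libraries numbered 3, without MUT replicate 1 (where *Pfkl*, at 0.16, equalled it when rounded), or with the spermatid marker covariate described further on. Blocking on the replicate number gave 0.22 again, with a standard error of 0.076 and a 95% interval from 0.054 to 0.39, and the adjusted p over all genes was 0.513 in edgeR, so that no call was made in either fit.

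Phosphofructokinase catalyses the committed step of the pathway. *Pfkp*, the platelet-type subunit (minus strand of chromosome 13, 6579768 to 6648777), was at 62.1, 57.9 and 49.4 CPM in WT replicates 1 to 3, against 66.2, 55.9 and 59.6 CPM in MUT replicates 1 to 3. *Pfkl*, the liver-type subunit (minus strand of chromosome 10, 77986947 to 78010083), was far lower, at 7.34, 9.44 and 7.86 CPM in WT and 8.35, 9.71 and 8.68 CPM in MUT. For both genes the groups overlapped, with log2 fold changes of 0.10 (standard error 0.10) for *Pfkp* and 0.12 (standard error 0.15) for *Pfkl*. *Pfkl* had between 168 and 224 counts in a library, the fewest of the 10 genes together with *Pgk1*, and none of its exon bases were overlapped by another gene.

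*Aldoa* encodes the aldolase that splits fructose 1,6-bisphosphate (minus strand of chromosome 7, 126795234 to 126800751). It was at 233, 237 and 259 CPM in WT replicates 1 to 3, against 251, 242 and 245 CPM in MUT replicates 1 to 3, so the MUT libraries lay inside the range of WT. Its log2 fold change was 0.02 (standard error 0.070), and its 95% interval, from 0.905 to 1.13 on the fold scale, was the narrowest of the 10.

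*Pgk1* encodes phosphoglycerate kinase, which makes ATP from 1,3-bisphosphoglycerate, and is X-linked (plus strand of chromosome X, 106187100 to 106203699). Its counts were 222, 203 and 234 for WT replicates 1 to 3, and 203, 202 and 193 for MUT replicates 1 to 3, which correspond to 9.70, 8.68 and 9.89 CPM in WT and 8.87, 8.76 and 8.25 CPM in MUT. MUT replicate 3 was lowest and the groups overlapped, with a log2 fold change of -0.13 (standard error 0.13). These counts miss fragments, since those aligning to several places were not counted and *Pgk1* has a processed copy, *Pgk1-rs7*. In the GENCODE M21 transcripts, 53.9% of the 50-base words of *Pgk1* were also found in other genes, and 53.8% in *Pgk1-rs7*. The coding sequence of transcript Pgk1-201 and the *Pgk1-rs7* transcript were identical at all 1250 bases that align without a gap, so a fragment from there cannot be assigned. Bases 601 to 650 of the coding sequence, counted from the first base of the start codon, show such a stretch, all in lower case because no base differs.
*Pgk1* and *Pgk1-rs7*: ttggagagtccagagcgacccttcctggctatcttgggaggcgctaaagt
*Pgk1-rs7* itself had 1 count in the 6 libraries together.

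*Pkm* encodes the muscle-type pyruvate kinase, whose alternative exons give the PKM1 and PKM2 enzymes that gene-level counts do not separate (plus strand of chromosome 9, 59656368 to 59679375). Its level was 575, 502 and 478 CPM in WT replicates 1 to 3, against 601, 485 and 495 CPM in MUT replicates 1 to 3. Replicate 1 was highest in both groups and the groups overlapped, with a log2 fold change of 0.03 (standard error 0.11). *Pkm* ranked 138 by CPM among the 19656 genes tested and gave between 37.7% and 44.8% of the summed CPM of the 10 genes in a library. Other gene names overlapped 15.3% of its exon bases, and 25.8% of its 50-base words were found in other annotated transcripts, and fragments that could not be told apart there were left out of its count.

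Lactate dehydrogenase subunit A, which favours the formation of lactate, is encoded by *Ldha* (plus strand of chromosome 7, 46841475 to 46855627). It was at 45.3, 48.6 and 66.6 CPM in WT replicates 1 to 3, against 39.5, 43.7 and 68.8 CPM in MUT replicates 1 to 3. Both libraries numbered 3 were far above the others, and the 4 others lay close together with MUT lower. *Ldha* varied most between mice of the same group, with a pooled within-group SD of 0.36 on the log2 scale against a median of 0.16 over all genes tested. Its log2 fold change of -0.08 (standard error 0.22) was smaller than that spread, and its 95% interval, from 0.670 to 1.34 on the fold scale, was the widest of the 10.

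Subunit B, encoded by *Ldhb* (minus strand of chromosome 6, 142490249 to 142507957), was at 10.5, 12.3 and 14.9 CPM in WT replicates 1 to 3, against 13.3, 13.3 and 13.0 CPM in MUT replicates 1 to 3. The MUT libraries differed little from each other and lay inside the range of WT, with a log2 fold change of 0.07 (standard error 0.14). A copy named *Gm5514* held 21.0% of its 50-base words.

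None of the 10 genes was called between MUT and WT by edgeR at an FDR of 0.1, where 0.0102% of all genes tested were called (0% as higher and 0.0102% as lower in MUT), and the adjusted p was 0.998 for each. At an unadjusted p under 0.05 the count was again 0 of 10 in edgeR, in DESeq2 and in limma voom. Over all genes tested edgeR gave 547 (2.78%), and DESeq2, run without the expression filter, gave 1.18% of 37271 genes. DESeq2 called none of the 10 at its adjusted p under 0.1 either, against 0.0241% of its genes (0.00268% higher and 0.0215% lower in MUT). With the replicate number as a block edgeR called none of the 10, against 0.0661% of all genes (0.00509% higher and 0.0611% lower), and 1 of the 10, *Hk2*, had an unadjusted p under 0.05, against 6.6%. DESeq2 with the block likewise called none of the 10, against 0.323% of 17045 genes with an adjusted p (0.0176% higher and 0.305% lower). It gave 1 of the 10, again *Hk2*, an unadjusted p under 0.05, against 1.64% of 37285 genes, including those that the expression filter removes. No member had groups that did not overlap, a pattern that 7.69% of all genes tested showed (4.69% with MUT above and 3% with MUT below). The log2 fold change was above 0 for 7 genes and below 0 for 3, with a median of 0.05 against 0.01 over all genes tested. For all 10 genes the 95% interval lay within a 1.5-fold change in either direction, narrowly so for *Ldha*, as it did for 59.1% of all genes tested, many of which have fewer counts. Summed over the 10 genes, WT libraries held 1284 ± 57.9 CPM and MUT libraries 1291 ± 66.2 CPM (SD, n = 3 each). An absence of calls does not show that the genotypes were alike, and in counts simulated on these samples edgeR called 77 of 193 genes changed 1.5-fold, 127 of 193 changed 2-fold and 190 of 197 changed 4-fold. The simulation changed 200 genes drawn from all levels and drew each gene independently, without shifts that libraries share. Its shares therefore do not give the chance of a call for these 10 genes.

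**Figure D1:**
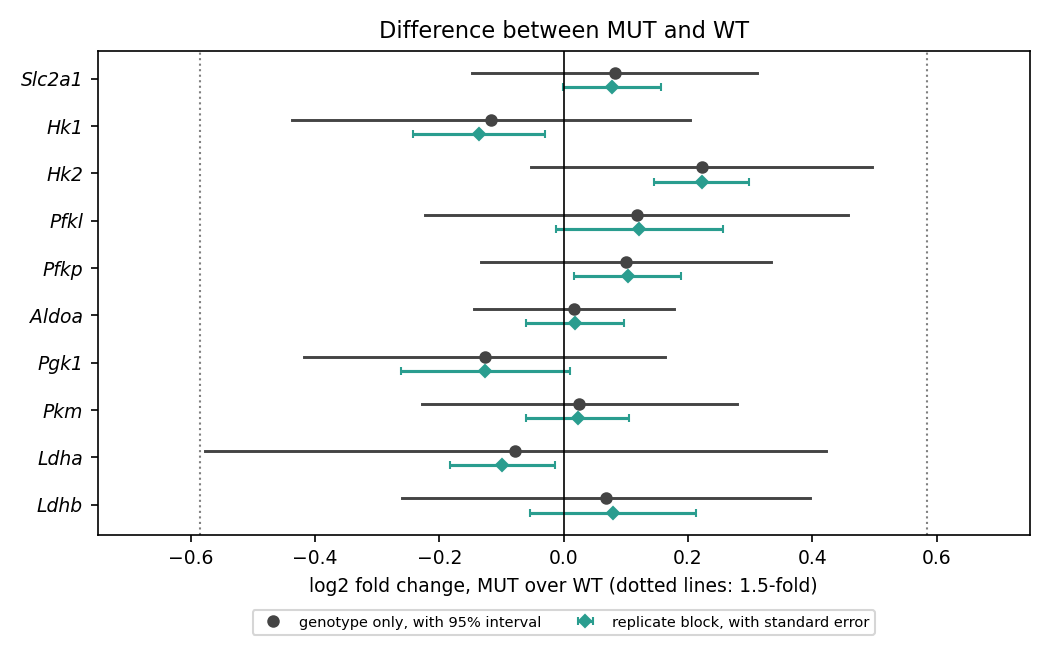
Log2 fold changes of MUT over WT for the 10 genes. Grey circles with lines give the fit on genotype alone with its 95% interval, green diamonds the fit with the replicate number as a block with its standard error, and dotted lines mark 1.5-fold in either direction, between which all 10 intervals lie, with *Hk2* farthest to the right at 0.22.

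Levels of different genes were compared as RPKM, that is CPM per kilobase of the exon length given with the counts, a length that pools all annotated exons and so lowers the value of genes with many isoforms. Averaged over the 6 libraries the order was *Pkm* (104.5 RPKM), *Aldoa* (84.0), *Hk1* (29.1), *Slc2a1* (17.3), *Ldha* (15.7), *Hk2* (11.8), *Ldhb* (8.21), *Pfkp* (4.37), *Pgk1* (4.02) and *Pfkl* (1.28 RPKM). The top and the bottom of this order were 81.4-fold apart. The ranges over the 6 libraries overlapped between the neighbours *Slc2a1* and *Ldha*, *Ldha* and *Hk2*, *Hk2* and *Ldhb*, and *Pfkp* and *Pgk1*, whose order is therefore not settled, and did not overlap at the other steps. With its missing fragments *Pgk1* is placed too low by an amount that was not measured. Other annotated transcripts also held 25.8% of the 50-base words of *Pkm*, 21.0% of *Ldhb*, 9.26% of *Ldha*, 5.1% of *Aldoa* and 5.1% of *Pfkp*. The levels of these genes can therefore be too low as well.

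**Figure D2:**
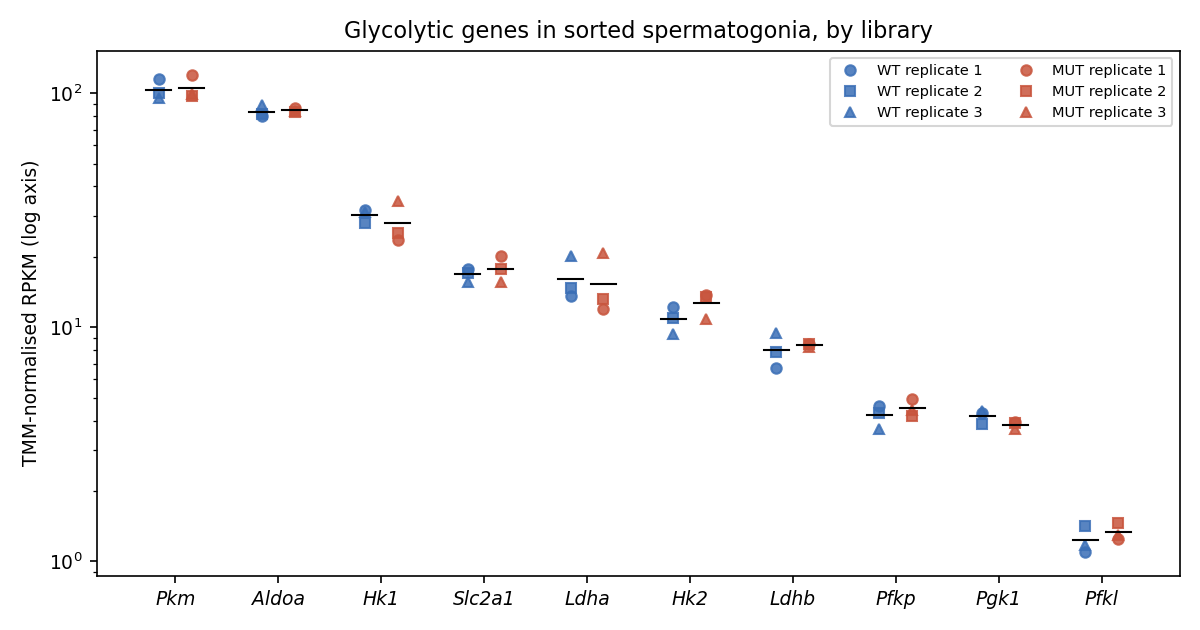
TMM-normalised RPKM of the 10 genes on a log axis, with WT in blue, MUT in red, a marker shape for each replicate number and a black bar for each group mean. The groups overlap for every gene, and *Ldha* has both libraries numbered 3 above the others.

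The 10 genes did not vary together between mice. Differences between libraries of the same group were largest for *Ldha* and *Hk1*, whose levels were highest in MUT replicate 3 and lowest in MUT replicate 1, at a ratio of 1.74 for *Ldha* and 1.47 for *Hk1*. *Hk2* and *Slc2a1* ran the other way and were highest in MUT replicate 1 and lowest in WT replicate 3, at ratios of 1.46 and 1.29. The spermatid markers were also low in MUT replicates 1 and 2, but were highest in WT replicate 3 for 5 of 6 genes and in MUT replicate 3 for 1. All 6 had their lowest levels in MUT replicates 1 and 2, and their sum was 1165, 869 and 1476 CPM in WT replicates 1 to 3, against 601, 629 and 1147 CPM in MUT replicates 1 to 3. When the log2 of that sum was added to the fit as a covariate, a choice made after seeing the data, the log2 fold change became 0.32 for *Ldha*, 0.13 for *Hk1*, 0.02 for *Hk2* and -0.08 for *Slc2a1*, and no member was called. When both libraries numbered 3 were left out, also after seeing the data, *Hk1* was called lower in MUT with a log2 fold change of -0.29 (adjusted p = 0.0794 in edgeR), in a fit of 2 libraries per group where 2.33% of all genes tested were called (0.235% higher and 2.09% lower in MUT) and 11.3% had an unadjusted p under 0.05. The other 9 members were not called there, with *Hk2* at 0.23 (adjusted p = 0.243 in edgeR) and *Ldha* at -0.18 (adjusted p = 0.492 in edgeR). The Leydig cell markers were highest in MUT replicate 3 in 6 of 6 genes and the macrophage markers highest in WT replicate 3 in 6 of 6 genes. The part of these cells in the values of *Ldha* and *Hk1* was not tested. The summed markers of undifferentiated spermatogonia were highest in MUT replicate 1 and lowest in WT replicate 3, as *Hk2*, *Slc2a1*, *Pfkp* and *Pkm* were. The part of the sorted population's make-up in these 4 genes was not tested.

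**Figure D3:**
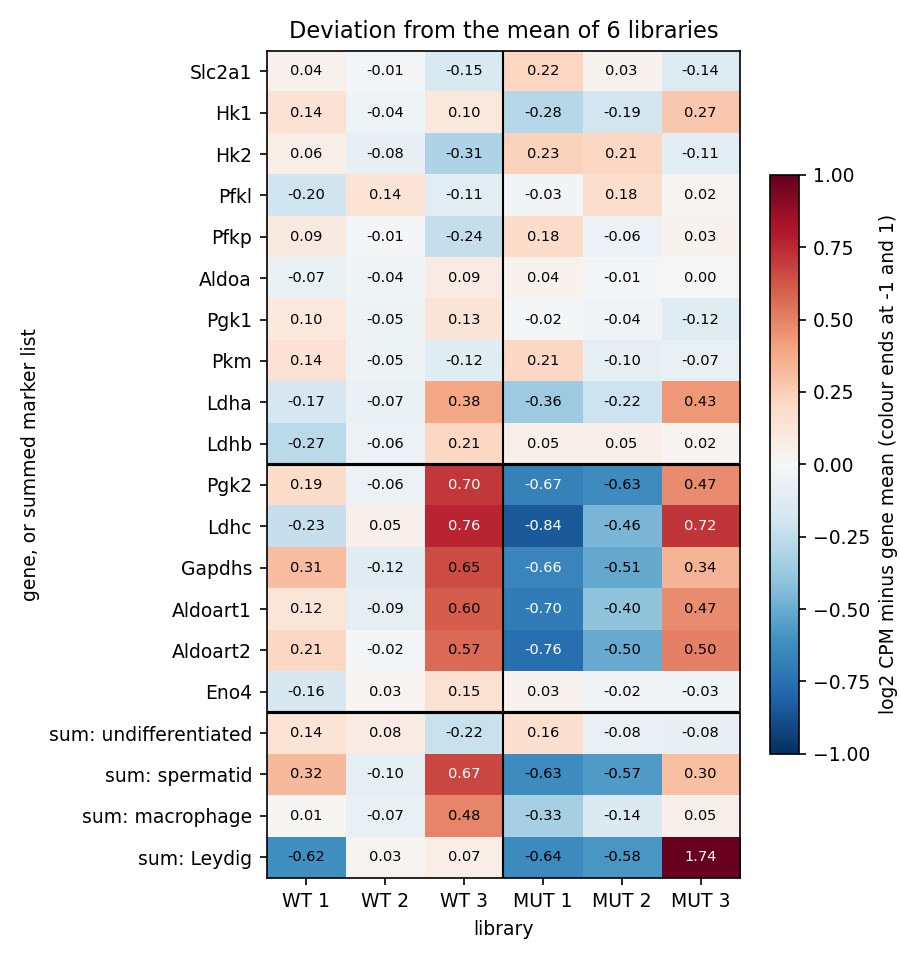
Deviation of each library from the mean of all 6 in log2 CPM, for the 10 genes (top), the germ-cell isozymes (middle) and the summed markers of 4 cell types (bottom), with red above and blue below the mean and colours ending at -1 and 1. *Ldha* stands at 0.38 in WT replicate 3 and 0.43 in MUT replicate 3, the libraries in which the isozymes *Pgk2* and *Ldhc* are also highest, while *Hk2* is at -0.31 and -0.11 there.

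Shares of paralogs were computed within a library, which makes them independent of library scaling. They still depend on fragments left out of a gene's count and on the pooled exon lengths, which were 13401 bases for *Pfkp* and 6675 bases for *Pfkl*. *Hk2* took 27.7%, 28.2% and 23.3% of the summed RPKM of *Hk1* and *Hk2* in WT replicates 1 to 3, against 36.7%, 34.9% and 23.7% in MUT replicates 1 to 3. The share was higher in MUT in each same-numbered pair, by little in the third, and the groups overlapped through MUT replicate 3. On average the share was 26.4% ± 2.72 for WT and 31.8% ± 6.99 for MUT (SD, n = 3 each), a difference of 5.34 percentage points (exact two-sided permutation test, p = 0.3, adjusted p = 0.75 over 3 shares). *Ldhb* took 32.9%, 34.8% and 32.1% of *Ldha* plus *Ldhb* in WT and 41.6%, 39.0% and 28.5% in MUT, with MUT replicate 3 lowest and the other MUT libraries highest of all, a difference of 3.10 points (exact two-sided permutation test, p = 0.5, adjusted p = 0.75). *Pfkp* took between 74.1% and 80.8% of *Pfkl* plus *Pfkp* in every library and differed by -0.22 points between the groups (exact two-sided permutation test, p = 1, adjusted p = 1). With 3 libraries against 3 the smallest p such a test can give is 0.1.

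**Figure D4:**
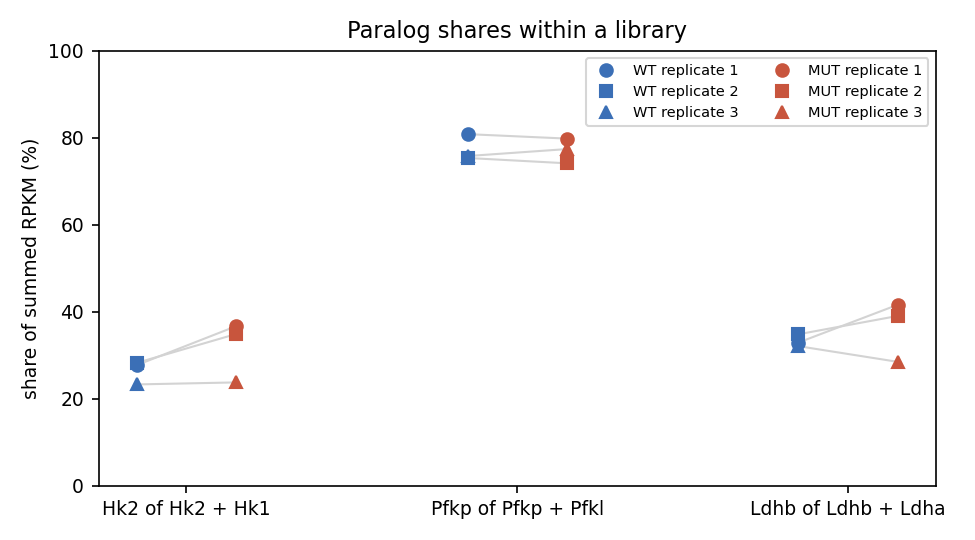
Share of *Hk2*, *Pfkp* and *Ldhb* in the summed RPKM of each paralog pair, in percent, with grey lines joining libraries of the same number. *Hk2* and *Ldhb* shares are highest in MUT replicates 1 and 2, and *Pfkp* shares lie between 74.1% and 80.8% in both groups.

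The wider pathway was read from 8 lists of 59 other genes, of which 56 passed the filter. None was called in either direction at an FDR of 0.1 in edgeR, and 1, *Mlxipl*, had an unadjusted p under 0.05 there, against 2.78% of all genes tested, and in DESeq2 and in limma voom. With the replicate number as a block none of the 56 was called in edgeR, and 10 had an unadjusted p under 0.05, against 6.6% of all genes tested. These were *Mlxipl*, *Mlxip*, *Tpi1*, *Pgam2*, *Slc16a7* and 5 germ-cell isozymes, and the smallest adjusted p among them was 0.223. Log2 fold changes were above 0 for 27 genes and below 0 for 29, with a median of -0.01. *Mlxipl* encodes the glucose-responsive transcription factor ChREBP and was at 42.8, 46.2 and 38.9 CPM in WT replicates 1 to 3, against 53.4, 57.0 and 47.5 CPM in MUT replicates 1 to 3. Every MUT library was above every WT library, as for 4.69% of all genes tested, and its log2 fold change of 0.30 had a standard error of 0.096 and an adjusted p of 0.998 in edgeR. *Mlxip*, which encodes a related factor, and the enolase gene *Eno3* were the other 2 genes of the 56 with MUT above WT throughout, and none had MUT below WT throughout.

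Among the remaining glycolytic steps (13 of 15 genes tested), *Gpi1*, glucose-6-phosphate isomerase, at 93.7 RPKM and *Gapdh* at 93.6 RPKM had the highest mean levels. The ranges of these genes over the 6 libraries overlapped, so their order is not settled. Other annotated transcripts held 25.1% of the 50-base words of *Gapdh* and 15.8% of those of *Gpi1*, so both counts can miss fragments. Their log2 fold changes were 0.00 for *Gpi1* and 0.06 for *Gapdh*, while *Pgam2*, a phosphoglycerate mutase, had the largest difference of the list at -0.33 (standard error 0.32). Among the 3 other transporters *Slc2a3* was highest at 5.98 RPKM with a log2 fold change of -0.01, and *Slc2a4* stood at 0.03. Of the genes that set fructose 2,6-bisphosphate, an activator of phosphofructokinase, *Tigar* was highest (12.6 RPKM, log2 fold change -0.02) and *Pfkfb3* differed most (-0.19, standard error 0.11). *Bsg*, the chaperone of lactate transporters, was at 121.7 RPKM with a log2 fold change of 0.02, and the transporter gene *Slc16a7* at 2.07 RPKM with -0.29 (standard error 0.33). Around the entry of pyruvate into mitochondria, *Pdk3* had 40.8 RPKM and a log2 fold change of -0.01, and *Pdk4*, with between 7 and 18 counts in a library, 0.28 (standard error 0.43). *Taldo1* led the 7 pentose phosphate genes in level (92.9 RPKM) and in difference (0.09, standard error 0.085), and *Hif1a* led the transcription factors with 16.6 RPKM and a log2 fold change of 0.02. Of the genes in these lists, *Pgam2* (-0.47, adjusted p = 0.0913 in edgeR) and *Slc16a7* (-0.52, adjusted p = 0.0520 in edgeR) were called lower in MUT once both libraries numbered 3 were left out. In that fit 2.09% of all genes tested were called lower and 0.235% higher.

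The germ-cell isozymes, which replace several of these enzymes in spermatocytes and spermatids, were present beside the somatic forms. *Ldhc* was at 66.7 RPKM where *Ldha* was at 15.7 RPKM, and *Pgk2* at 32.2 RPKM where *Pgk1*, which is undercounted, was at 4.02 RPKM. Fragments of *Ldha* can be missing too, since 9.26% of its 50-base words were found in other annotated transcripts. The pooled exon length, by which RPKM divides, was 3310 bases for *Ldha* and 1580 bases for *Ldhc*, so part of this gap comes from length. *Gapdhs*, the sperm form of glyceraldehyde-3-phosphate dehydrogenase, had 137, 102 and 174 CPM in WT replicates 1 to 3, against 70.1, 77.5 and 140 CPM in MUT replicates 1 to 3. *Pgk2* had 54.8, 46.1 and 78.7 CPM in WT replicates 1 to 3, against 30.0, 30.9 and 66.9 CPM in MUT replicates 1 to 3. *Ldhc* had 82.6, 100.4 and 165 CPM in WT replicates 1 to 3, against 53.9, 70.4 and 160 CPM in MUT replicates 1 to 3. In all 3 genes MUT replicates 1 and 2 were lowest and the groups overlapped through MUT replicate 3, and MUT replicates 1 and 2 also had the lowest spermatid marker sums while WT replicate 3 had the highest of both. All 6 tested isozymes had a log2 fold change below 0, with a median of -0.40, from -0.52 for *Gapdhs* over -0.49 for *Pgk2*, -0.42 for *Aldoart2*, -0.38 for *Aldoart1* and -0.29 for *Ldhc* to -0.02 for *Eno4*, and none was called in edgeR, where 0 of the 6 had an unadjusted p under 0.05. *Ldhal6b* had no count in any library, and all of its exon bases were overlapped by another gene name, so that fragments from it would not have been counted. With the replicate number as a block 5 of the 6 had an unadjusted p under 0.05 and none an adjusted p under 0.1 in edgeR, against 6.6% and 0.0661% of all genes tested, and DESeq2 with the block, which called 0.323% of the genes it tested (0.0176% higher and 0.305% lower in MUT), called *Gapdhs* (log2 fold change -0.55, adjusted p = 0.0203) and *Pgk2* (-0.55, adjusted p = 0.0416). The fit without both libraries numbered 3 had 2 libraries per group and was chosen after seeing the data. There edgeR called 2.33% of all genes tested (0.235% higher and 2.09% lower in MUT). Of the isozymes edgeR called *Pgk2* (-0.73, adjusted p = 0.00810), *Gapdhs* (-0.70, adjusted p = 0.0163), *Aldoart2* (-0.74, adjusted p = 0.0175) and *Ldhc* (-0.56, adjusted p = 0.0502) in that fit, all lower in MUT. The part of spermatid RNA in these differences was not tested. In the fit with the summed spermatid markers as a covariate, the log2 fold changes of the 6 lay between -0.0011 and 0.35. That sum was itself lowest in MUT replicates 1 and 2, so this fit cannot separate spermatid RNA from genotype.

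**Figure D5:**
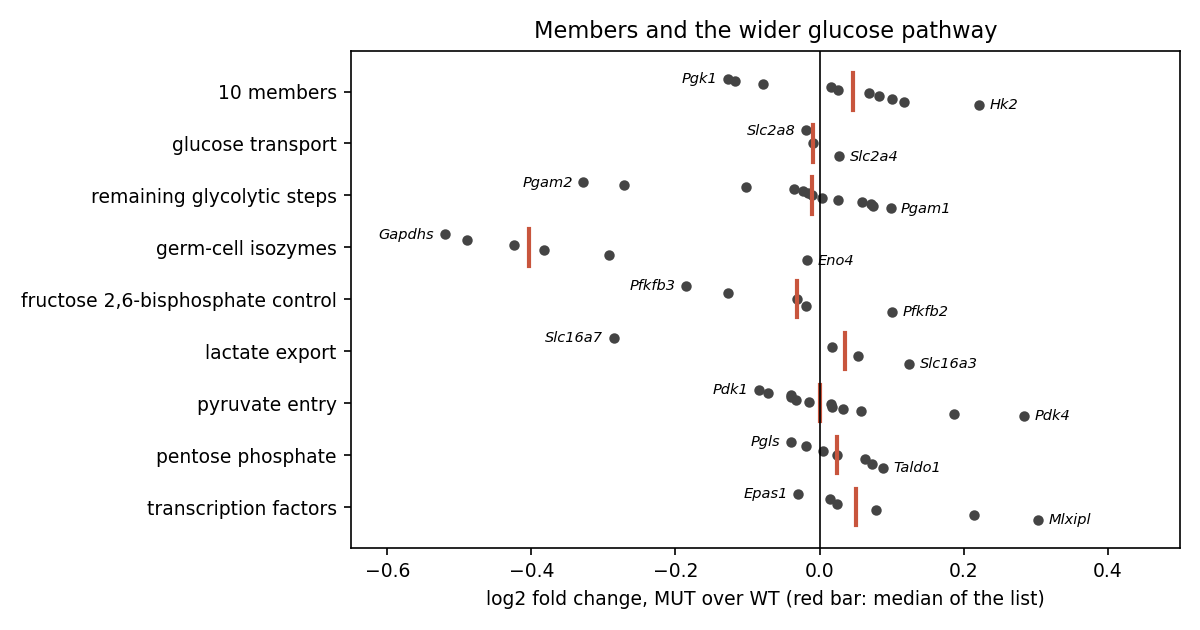
Log2 fold changes of MUT over WT for the 10 members and the tested genes of 8 further lists, 1 point per gene, with a red bar at each list's median and the lowest and highest gene named. The germ-cell isozymes have the lowest median, at -0.40, and the other medians lie between -0.03 and 0.05.

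The genes whose pattern over the 6 libraries was most like the mean profile of the 10 members, among 10575 others above 10 CPM, were *Alas1*, *Tnfrsf10b* and *Cd34*. Their Pearson correlations with that profile were 0.98, 0.96 and 0.95 over 6 libraries, a description of the closest of many genes to which no test applies. The profile itself only ran from -0.03 in WT replicate 2 to 0.03 in MUT replicate 3 on the log2 scale, since the members moved in different directions.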

How the data were processed

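RNA of sorted spermatogonia was sequenced from 6 mice, 3 WT and 3 MUT, grouped by the sample labels. The authors deposited raw fragment counts per gene name, made per the file headers with featureCounts 1.6.2 on GENCODE M17 with tdTomato added, without strand and without multi-mapping or ambiguous fragments. The submitters' processing notes name STAR and GRCm38.p6. No normalisation or pooling had been applied. Totals were 22729292 to 23550433 counts. The floor of 3 counts covers counting error only, while the 95% intervals come from the quasi-likelihood fit and include the spread between mice.

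In R 4.3.3, edgeR 4.0.16 normalised by TMM, filtered with filterByExpr and tested genotype by quasi-likelihood with Benjamini-Hochberg adjustment over all genes at an FDR of 0.1. CPM and RPKM are TMM-scaled. Log2 deviations used a pseudocount of 0.5 CPM. Alternatives were DESeq2 1.42.0, limma 3.58.1 voom, DESeq2 size factors, other filters, an FDR of 0.05, a replicate block and each library left out. The tests were checked on simulated counts.

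The replicate numbers come from the labels. Deviations from group means over 10583 genes above 10 CPM correlated at 0.30, 0.16 and 0.40 in the same-numbered pairs. They correlated at 0.33 between WT replicate 2 and MUT replicate 1, so they do not single out the pairs numbered 1 and 2. The block fits and paired differences use the numbers as an assumed pairing. The labels do not say what a number shares.

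The members and lists were chosen with earlier results of these data known. Genes named were the 10 members, per wider list the highest by RPKM and the largest log2 fold change, all germ-cell isozymes, any gene called, and the 3 genes most like the members. *Gapdh*, *Mlxip*, *Eno3* and the copies were added after their values were seen. Words of 50 bases were compared over GENCODE M21 transcripts of the same build, which does not cover unannotated copies.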

Additional observations from a re-analysis of the deposited data

How the results depend on the processing

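The count of genes called, 2 over all genes in edgeR, was 9 in DESeq2, 4 in limma voom, 5 without a filter, 0 when each library had to hold 10 counts or more (479 at an unadjusted p under 0.05) and 1 at an FDR of 0.05. Adding the replicate block gave 13 in edgeR, 8 at an FDR of 0.05 there, and 55 in DESeq2. It was 456 without both libraries numbered 3, and 0 to 6 when 1 library was left out. For the members the count of 0 became 1 (*Hk1*) without both libraries numbered 3 and was 0 under every other alternative run, leaving out each library included. For the wider pathway the count of 0 became 2 with the replicate block in DESeq2, where 0.323% of the genes tested were called. It became 6 without both libraries numbered 3, where 2.33% of the genes tested were called. The block changed no other call of a member or wider pathway gene.

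The members' median log2 fold change of 0.05 was 0.025 with the spermatid covariate and 0.0064 to 0.075 when 1 library was left out. With that covariate *Slc2a1* turned to -0.077, *Hk1* to 0.13, *Pkm* to -0.055 and *Ldha* to 0.32. Leaving out 1 library moved *Slc2a1* from -0.020 to 0.17, *Aldoa* from -0.022 to 0.065, *Pkm* from -0.086 to 0.097, *Ldha* from -0.36 to 0.11 and *Ldhb* from -0.053 to 0.21, and without a change of sign *Hk2* from 0.13 to 0.32, *Hk1* from -0.31 (without MUT replicate 3) to -0.019 (without MUT replicate 1), *Pfkl* from 0.035 (without WT replicate 1) to 0.22, *Pfkp* from 0.012 (without WT replicate 3) to 0.17 and *Pgk1* from -0.20 to -0.091. Without both libraries numbered 3 *Ldhb* stood at 0.22. *Ldha* was at 0.11 without WT replicate 3 and at -0.36 without MUT replicate 3. The *Hk2* share differed by 2.89 to 9.35 points, the highest without MUT replicate 3, the *Ldhb* share by 0.485 to 7.04 and the *Pfkp* share by -1.57 to 1.54. As mean differences within same-numbered pairs the shares differed by 5.34, 3.10 and -0.22 points (exact sign-flip permutation tests over the replicate block, which cannot give a p below 0.25). The causes were not tested. Of 150 alternative fits of single members 15 turned the direction and 1 gained a call. The covariate, the fits without both libraries numbered 3 and the block at an FDR of 0.05 were chosen after seeing the data. Low counts limit *Pfkl*, *Pgk1* and *Pdk4* most.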
